A study of Mus musculus with 8 samples.

Results

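The genes of the DNA replication machinery were followed in RNA-seq data from mouse germline stem (GS) cells, a long-term culture of spermatogonia that is enriched for spermatogonial stem cells. The set held 41 genes named by symbol, from the origin recognition complex to the ligase that joins Okazaki fragments. All 41 were found among the 31010 genes of the table, and all 41 passed the filter for testing (a mean of at least 1 FPKM over 8 lines), which 12000 genes passed. FPKM counts fragments per kilobase of gene after scaling for sequencing depth.

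The RNA-seq compared gene expression in the germline of mice conceived by ICSI, the injection of a single sperm directly into the egg, with that of naturally conceived mice. GS cell lines were derived from F1 mice of the B6 background with the WT genotype. There were 4 ICSI-F1 lines (11, 17, 20 and 21), from mice born after ICSI, and 4 control-F1 lines (29, 37, 44 and 45), from mice sired by natural mating, with no treatment. In both groups CD9-expressing spermatogonia were sorted from mature testes and expanded with GDNF and FGF2. Embryonic fibroblasts that accompany the cultures were depleted by plating on gelatin before collection. The numbers of the lines are those of individual F1 mice in the study's supplement. The sources used here name no litters and give no ages, and the p-values below measure the spread between these lines.

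The titles of the lines were written in 2 styles. Naming set 1 is made up of 29 and 37 from the control group with 11 and 17 from the ICSI group, and naming set 2 of 44 and 45 with 20 and 21. The submitters' processing notes name other versions of the trimming, mapping and counting tools for each set. The study's methods name only the versions given for set 1, and what else distinguishes the sets is not stated. Recovered reads numbered 24219008 to 26108359 per library in set 1 and 31786388 to 43413419 in set 2. The germ cell markers Ddx4 and Dazl were high in every line, with a summed level of 430 to 505 FPKM in set 1 and 625 to 694 FPKM in set 2. Of 15 fibroblast markers, 14 had a mean of at least 1 FPKM and none was at 0 in all lines. Their summed level was highest in control line 29 (967 FPKM), control line 44 (964 FPKM) and ICSI line 20 (689 FPKM), against 292 to 452 in the other 5 lines.

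Replication begins where the origin recognition complex marks the DNA. With Cdc6 and Cdt1 it loads the MCM helicase during G1, a step called licensing, and geminin (Gmnn) holds Cdt1 in check afterwards. In S phase Cdc45 and the GINS complex join the MCM ring to form the active CMG helicase, and Mcm10 helps it to open the DNA. Polymerase alpha-primase lays down primers, the RFC complex loads the PCNA clamp, polymerases epsilon and delta extend the leading and lagging strands, RPA covers the single strands, and Fen1 and Lig1 finish the Okazaki fragments. Many of these genes are transcribed around the G1-S transition under E2F factors, and dividing cultures such as GS cells are known to express them.

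The E2F-type promoter motif is shown first because E2F factors are known to act on genes of this kind. RefSeq promoter windows (GRCm38.p6) of 300 bases, 250 before and 50 after the start, were matched for 33 members with 41 promoters. Those of Mcm4, Gmnn, Gins1, Gins2, Gins4, Prim2, Pole and Rfc2 were not matched. The motifs TTTCCCGC, TTTGGCGC, TTTCGCGC and TTTGCCGC were searched on both strands, with overlapping matches kept. In the windows of 30 bases that follow, 5′ to 3′ on the gene's strand, capitals mark the matches, and in Mcm5 and Mcm6 a pair of matches on opposite strands overlaps. Matches of origin recognition, licensing, MCM helicase, clamp loader and polymerase alpha genes were chosen.
Mcm3, chr1:20820275-20820304, minus strand: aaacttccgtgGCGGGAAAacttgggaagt
Mcm5, chr8:75109345-75109374, plus strand: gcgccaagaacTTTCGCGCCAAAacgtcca
Mcm6, chr1:128359797-128359826, minus strand: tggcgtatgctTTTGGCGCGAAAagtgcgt
Mcm7, chr5:138172030-138172059, minus strand: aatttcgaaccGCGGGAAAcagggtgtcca
Orc1, chr4:108579416-108579445, plus strand: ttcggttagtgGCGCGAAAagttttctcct
Cdc6, chr11:98908002-98908031, plus strand: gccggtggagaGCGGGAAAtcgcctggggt
Cdt1, chr8:122568035-122568064, plus strand: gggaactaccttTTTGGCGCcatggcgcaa
Rfc3, chr5:151651200-151651229, minus strand: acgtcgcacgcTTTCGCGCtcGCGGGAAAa
Pola1, chrX:93632275-93632304, minus strand: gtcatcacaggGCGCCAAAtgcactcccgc

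An E2F-type match was found in 15 of the members' 41 promoters (36.6%), each of a different gene, against 4.09% of 12144 promoters of the genes tested, 2.26% of all 32851 promoters, and 1 of 20 promoters (5.00%) of a list of mitosis genes. Members of nearly every step held one: Orc1 and Orc3, Cdc6 and Cdt1, Mcm3, Mcm5, Mcm6 and Mcm7, Gins3, Pola1, Pold1 and Pold3, Pole2, Rfc3 and Lig1. The CHR element of late cell cycle genes (TTTGAA or TTCGAA) showed the other order, at 17.1% of the members' promoters, 75.0% of those of mitosis genes and 13.5% of those of the genes tested. The CCAAT box (CCAAT) was present in 56.1% of the members' promoters against 38.4%, and the GC box (GGGCGG) in 70.7% against 63.9% of those of the genes tested. The median GC content was 61.3% in the members' promoters and 61.0% in those of the genes tested. These matches describe letters in a window and show no binding.

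**Figure D1:**
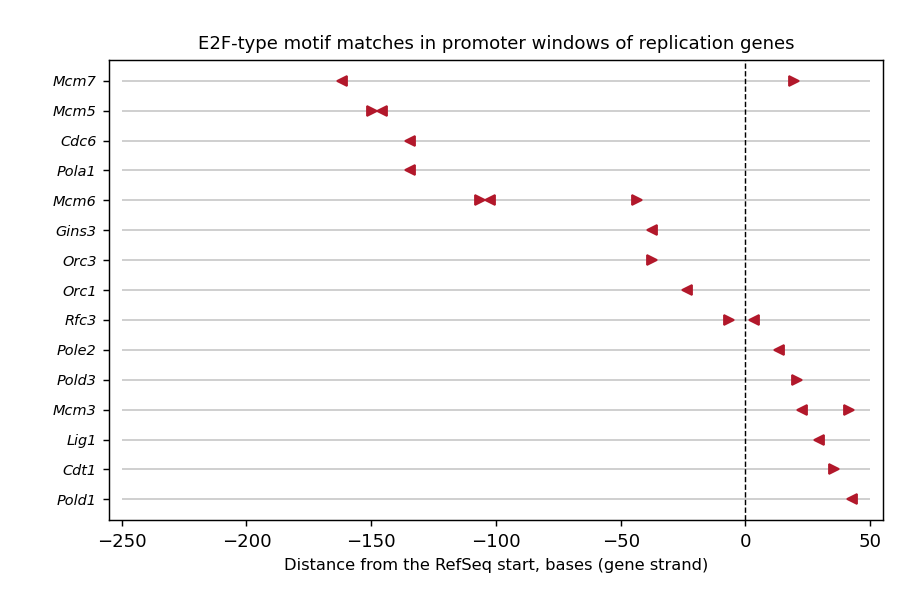
Each row is a promoter window of a member with an E2F-type match, and the x axis is the distance in bases from the RefSeq start (dashed line). Triangles mark matches and point along the strand on which the motif is read. Matches of the 15 members lie both before and after the start, from the upstream match of Mcm7 to the one just after the start of Pold1.

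The members were expressed at high and even levels. Their mean levels ran from 4.19 FPKM for Gins2 to 132 FPKM for Mcm4, with a median of 31.2 FPKM against 8.58 FPKM for all genes tested, and 34 of 41 lay above that value. The median member stood above 85.0% of the genes tested. The coefficient of variation (CV) over 8 lines had a median of 11.8% (5.93% for Orc2 to 28.2% for Pole), and 37 members were under 20%. Among the 8265 genes tested in the same range of levels the median CV was 15.2%, and 30 of 41 members lay below it. At a member's mean reads over the 8 libraries, counting error contributed a CV of 0.778% to 4.38%. Single libraries held 386 to 23374 reads of a member, and at 386 reads the counting CV was 5.09%. In the order of levels, all 40 neighboring pairs overlapped in their ranges over 8 lines, so no step of that order exceeded the spread between lines. In these bulk samples, fewer cells of a type and less RNA per cell cannot be told apart.

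**Figure D2:**
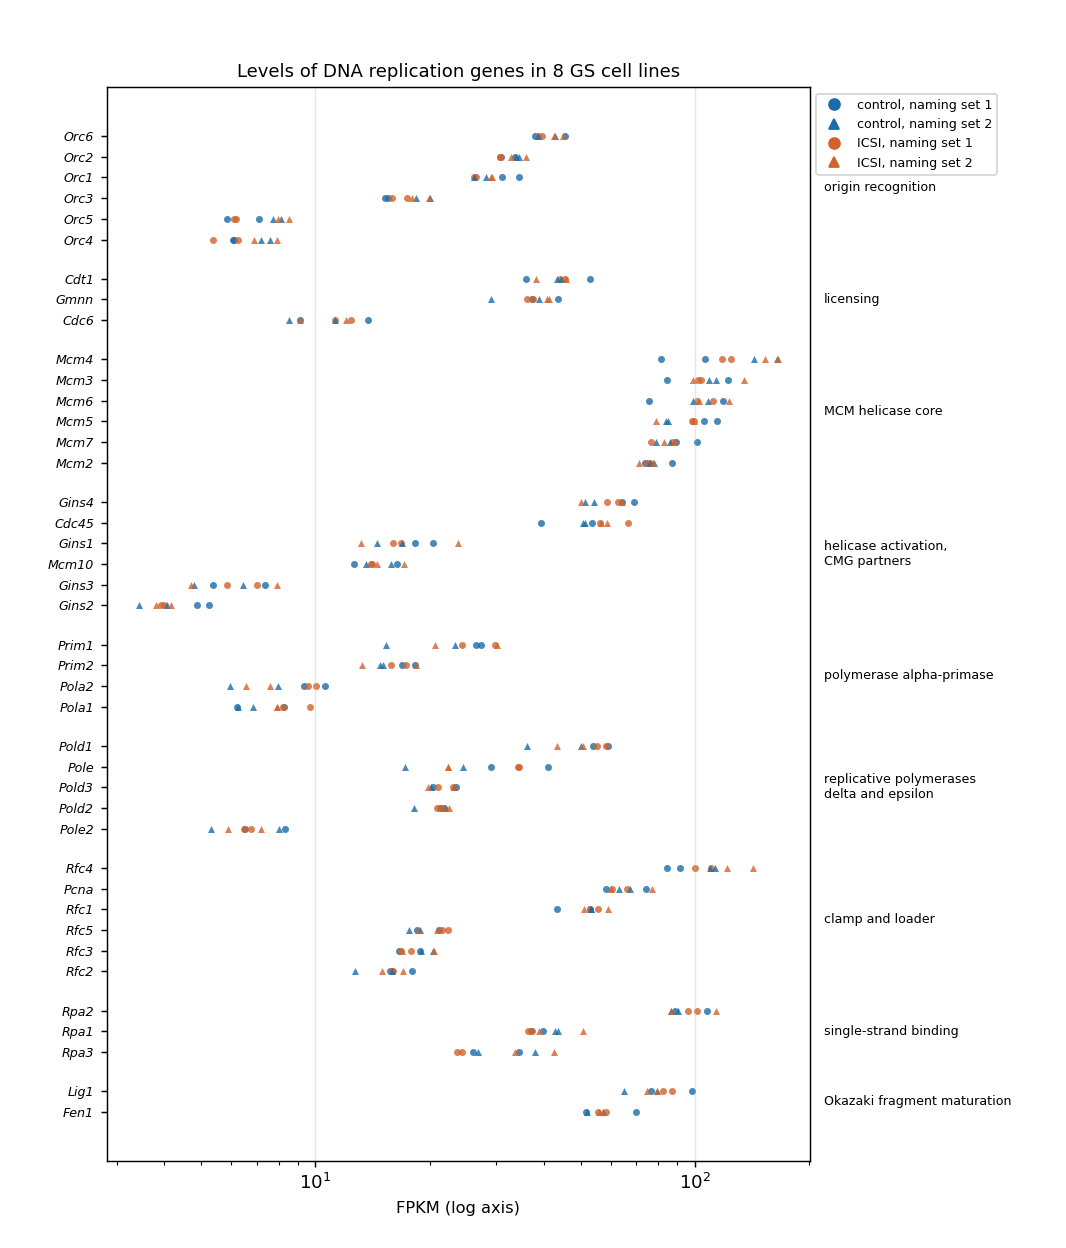
FPKM (x axis, log scale) of each of 41 members (y axis, grouped by role and ordered by mean within a role) in 8 lines, colored by group, with circles for naming set 1 and triangles for set 2. The 6 MCM genes form the highest group, between 71.4 and 166 FPKM, while Gins2 stays between 3.42 and 5.25 FPKM.

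The level of a gene depends on the length it is divided by. The authors' values fitted the combined length of all exons of a gene, which exceeded that of its principal transcript by up to 3.43 times (Pola2), 3.01 times (Prim2) and 2.93 times (Orc5), while it was equal for Mcm4 and Gins4. Divided by the principal transcript, the order of the 41 genes had a Spearman rho of 0.943 with the order above, and Mcm6 (168 FPKM) took the place of Mcm4 at the top. A ratio of FPKM between lines does not depend on this length. Exon bases shared with a gene on the other strand made up 84.2% of Fen1 (with Tmem258 and Gm10143), 67.3% of Gins2 (with Gse1), 29.8% of Orc2 (with Nif3l1) and at most 15.1% of the others. The sources name different library kits, so whether strand was read is uncertain, and the values of Fen1, Gins2 and Orc2 are uncertain with it.

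Values below are given in a fixed order, with controls as 29, 37, 44 and 45 and ICSI as 11, 17, 20 and 21. Among the origin recognition genes, Orc6 was highest, at 38.0, 45.4, 38.6 and 42.7 FPKM in control lines and 38.6, 39.6, 45.002 and 42.6 FPKM in ICSI lines. Orc4 was lowest, at 6.11, 6.07, 7.19 and 7.60 FPKM in control lines and 6.26, 5.37, 6.87 and 7.95 FPKM in ICSI lines. The groups overlapped for both, and Orc4 was higher in each line of naming set 2 than in any line of set 1. Orc1, the ATPase subunit whose level is cell cycle regulated, gave 30.9, 34.3, 26.1 and 28.2 FPKM in control lines and 26.6, 26.1, 29.1 and 29.1 FPKM in ICSI lines. The complex was therefore unequal at the RNA level, with Orc2, Orc1, Orc3 and Orc5 at means of 32.8, 28.8, 17.6 and 7.19 FPKM between Orc6 (41.3 FPKM) and Orc4 (6.68 FPKM). Per principal transcript Orc6 and Orc4 were still the highest and the lowest, at 79.2 and 12.2 FPKM.

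Of the licensing genes, Cdt1 stood at 35.9, 52.9, 44.4 and 43.4 FPKM in control lines and 45.4, 44.2, 38.2 and 45.8 FPKM in ICSI lines. Cdc6 stood at 9.12, 13.7, 8.51 and 11.2 FPKM in control lines and 11.3, 12.4, 9.13 and 12.0 FPKM in ICSI lines. Gmnn stood at 37.1, 43.5, 29.1 and 38.8 FPKM in control lines and 36.2, 37.4, 41.3 and 40.7 FPKM in ICSI lines. The groups overlapped for all 3 genes. The ratio of Cdt1 to its inhibitor Gmnn was 1.21 ± 0.236 (SD, n = 4) in control lines and 1.12 ± 0.141 (SD, n = 4) in ICSI lines, with control line 44 highest at 1.53 and ICSI line 20 lowest at 0.926.

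The MCM2-7 ring contains its 6 subunits in equal number, and their RNA levels lay close together. Mcm4 was highest, at 81.3, 106.5, 164.8 and 143.3 FPKM in control lines and 118.1, 124.5, 165.8 and 152.8 FPKM in ICSI lines. Mcm2 was lowest, at 74.0, 86.9, 78.0 and 76.1 FPKM in control lines and 76.2, 74.7, 77.5 and 71.4 FPKM in ICSI lines. Within a line, the highest of the 6 was 1.41 to 2.14 times the lowest. Mcm2 was the lowest in all 8 lines, and Mcm4 was the highest in all lines but control lines 29 and 37. That order rested on gene length: per principal transcript Mcm6 was the highest in 6 lines, with Mcm2 highest in control line 29 and Mcm4 in control line 44. The sum over the 6 genes was 597 ± 60.5 FPKM in control lines and 613 ± 50.8 FPKM in ICSI lines (SD, n = 4). Mcm7 gave 89.1, 101.6, 78.8 and 86.0 FPKM in control lines and 87.4, 76.6, 88.2 and 82.7 FPKM in ICSI lines, with the groups overlapping.

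The partners that turn the MCM ring into the active helicase differed most among themselves. Gins4 was highest, at 64.2, 69.0, 51.5 and 54.1 FPKM in control lines and 62.7, 58.8, 64.1 and 50.2 FPKM in ICSI lines. Gins2, which belongs to the same complex of 4 proteins, was lowest, at 5.25, 4.88, 3.42 and 4.07 FPKM in control lines and 3.99, 3.93, 3.80 and 4.15 FPKM in ICSI lines. Gins4 was far above Gins2 in every line, and Gins1 and Gins3 lay between them with means of 17.5 and 6.19 FPKM. Most exon bases of Gins2 are shared with Gse1, as given above. Per principal transcript Cdc45 (88.5 FPKM) was the highest of these partners and Gins4 followed at 59.3 FPKM, while Gins2 was still the lowest (4.40 FPKM).

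In polymerase alpha-primase, the primase subunit Prim1 was highest and the catalytic subunit Pola1 lowest. Prim1 gave 26.5, 27.4, 15.4 and 23.4 FPKM in control lines and 24.3, 29.8, 30.1 and 20.7 FPKM in ICSI lines. The groups overlapped, and control line 44 was the lowest of the 8. Of the replicative polymerases, Pold1, the catalytic subunit of polymerase delta, gave 53.9, 59.0, 36.2 and 50.2 FPKM in control lines and 58.4, 55.1, 43.4 and 50.6 FPKM in ICSI lines. Pole2, an accessory subunit of polymerase epsilon, gave 6.53, 8.31, 5.31 and 8.04 FPKM in control lines and 6.76, 6.49, 5.88 and 7.18 FPKM in ICSI lines. Both overlapped between groups, and control line 44 was again the lowest for both.

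In the clamp loader, Rfc4 (mean 109 FPKM) was highest and Rfc2 (mean 15.8 FPKM) lowest, although the subunits act in a single complex. Rfc2 gave 15.7, 17.9, 12.7 and 15.9 FPKM in control lines and 16.0, 16.0, 17.0 and 15.0 FPKM in ICSI lines. Rfc4 was 4.71 to 8.87 times Rfc2 within a line. Pcna, the clamp itself, ranged from 58.2 to 77.2 FPKM, with means of 65.8 FPKM in control lines and 66.0 FPKM in ICSI lines. Of the RPA subunits, Rpa2 gave 88.4, 107.5, 86.3 and 90.4 FPKM in control lines and 95.7, 101.3, 113.8 and 86.4 FPKM in ICSI lines. Rpa3 gave 34.4, 26.0, 26.9 and 38.0 FPKM in control lines and 23.6, 24.4, 42.6 and 33.6 FPKM in ICSI lines, the widest spread of the 3 subunits (CV 22.4%). The groups overlapped for both. Lig1 ranged from 65.2 to 98.0 FPKM and Fen1 from 51.7 to 69.9 FPKM, with the lowest Lig1 in control line 44, the lowest Fen1 in control line 29 and the highest of both in control line 37.

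No member passed the test between ICSI lines and control lines. In limma on log2(FPKM + 1) with Benjamini-Hochberg adjustment, 0 of 41 members and 0% of the 12000 genes passed an adjusted p of 0.05, and the lowest adjusted p of a member was 1.00. At an unadjusted p under 0.05 there was 1 member, Cdc45, against 0.458% of the genes tested, and limma-voom on the recovered reads likewise called 0 members, with 2 at that unadjusted level. The members' log2 differences (ICSI minus control) ran from -0.11 to 0.29 with a median of 0.011, against -0.013 over all genes tested, and 31 of 41 lay within 0.1 of 0. By sign, 23 were above 0 (56.1%, against 44.3% of the genes tested) and 18 below. The 95% intervals had a median half-width of 0.29 on the log2 scale, with outermost bounds of -0.52 (Pole) and 0.71 (Mcm4).

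**Figure D3:**
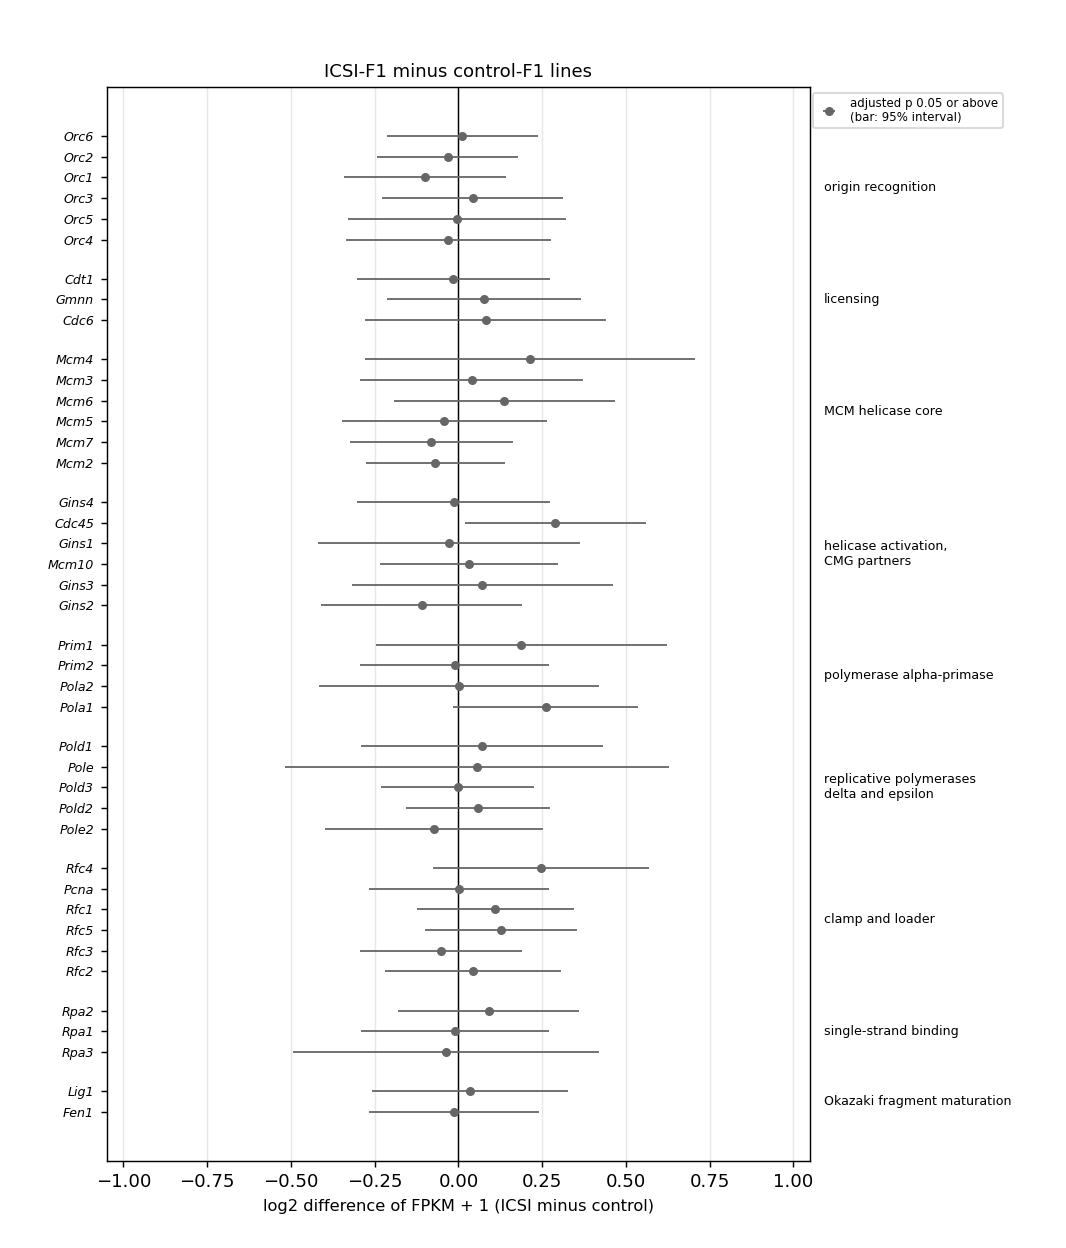
The x axis is the log2 difference of FPKM + 1, ICSI minus control, from limma, for each of 41 members (y axis, by role), with 95% intervals as bars (4 lines per group). In this fit without the naming set the interval of Cdc45 alone leaves out 0, and no member passed the adjusted threshold.

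Cdc45, the CMG subunit whose recruitment marks helicase activation (ENSMUSG00000000028, chr16:18780447-18811987, minus strand, GRCm38), had the smallest p of the 41 in the fit without the naming set. It stood at 39.4, 53.5, 51.2 and 50.6 FPKM in control lines and 56.2, 66.6, 56.5 and 58.5 FPKM in ICSI lines. Every ICSI line was above every control line, as in 0.442% of the genes tested that separated the groups in either direction. The log2 difference was 0.29 (95% interval 0.019 to 0.56, limma adjusted p = 1.00), and it was 0.41 within naming set 1 and 0.17 within set 2. An exact two-sided permutation test over the 8 lines gave p = 0.0286, the smallest that its 70 assignments allow and not corrected for the 41 members looked at. Without control line 29, the lowest for Cdc45, the log2 difference was 0.19. That line had the highest fibroblast marker sum (967 FPKM). Control line 44 had nearly the same sum (964 FPKM) with Cdc45 at 51.2 FPKM, and control line 45 had the lowest sum (292 FPKM) with Cdc45 at 50.6 FPKM. The part of fibroblast RNA in the Cdc45 values was not tested. Over the lines left out in turn the log2 difference of Cdc45 ran from 0.19 to 0.34. Its unadjusted limma p rose above 0.05 without control line 29 (0.089) or 45 (0.054). The same held without ICSI line 11 (0.053), 17 (0.11) or 21 (0.065). That p stayed under 0.05 without control line 37 (0.032) or 44 (0.043), or ICSI line 20 (0.042).

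Pola1, the catalytic subunit of polymerase alpha, was next, at 6.20, 8.26, 6.87 and 6.26 FPKM in control lines and 8.22, 9.68, 7.90 and 7.94 FPKM in ICSI lines. Control line 37 reached into the ICSI range. The log2 difference was 0.26 (95% interval -0.016 to 0.54), with 0.28 in set 1 and 0.24 in set 2, and the exact permutation test gave p = 0.114. Rfc4, which carries ATP-dependent clamp loading with its partners, gave 91.5, 84.5, 112.8 and 109.8 FPKM in control lines and 99.9, 110.5, 142.0 and 121.6 FPKM in ICSI lines. Its groups overlapped, although within each set both ICSI lines lay above both control lines, and the log2 difference was 0.25 (95% interval -0.077 to 0.57). With the naming set as a covariate the intervals narrowed to 0.051 to 0.44 for Rfc4, 0.027 to 0.55 for Cdc45 and 0.014 to 0.51 for Pola1. Rfc4 then had the smallest p, and these 3 members were under an unadjusted p of 0.05, against 1.17% of the genes tested, with a limma adjusted p of 1.00 for each. The members furthest below 0 by p were Orc1 (log2 difference -0.10), Gins2 (-0.11) and Mcm7 (-0.081), and each of their intervals held 0.

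The naming sets differed in 4 of 41 members. These were 9.76% of the members, against 16.0% of the genes tested, so the members' share was not above the background. Mcm4 and Rfc4 were higher in set 2 (10.2% of the genes tested were called higher) and Pole and Pola2 lower (5.76% were called lower). At an unadjusted p under 0.05 there were 9 members, against 35.4% of the genes tested. The members' median log2 difference (set 2 minus set 1) was -0.050, against 0.028 over all genes tested. Above 0 lay 16 of 41 members (39.0%), against 53.6% of the genes tested. The split depended on scaling: after rescaling to TPM 1 member was called higher and 3 lower (13.3% of the genes tested were called), and after quantile normalization 0 were called higher and 5 lower (16.6% of the genes tested), with the members' median at -0.15.

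**Figure D4:**
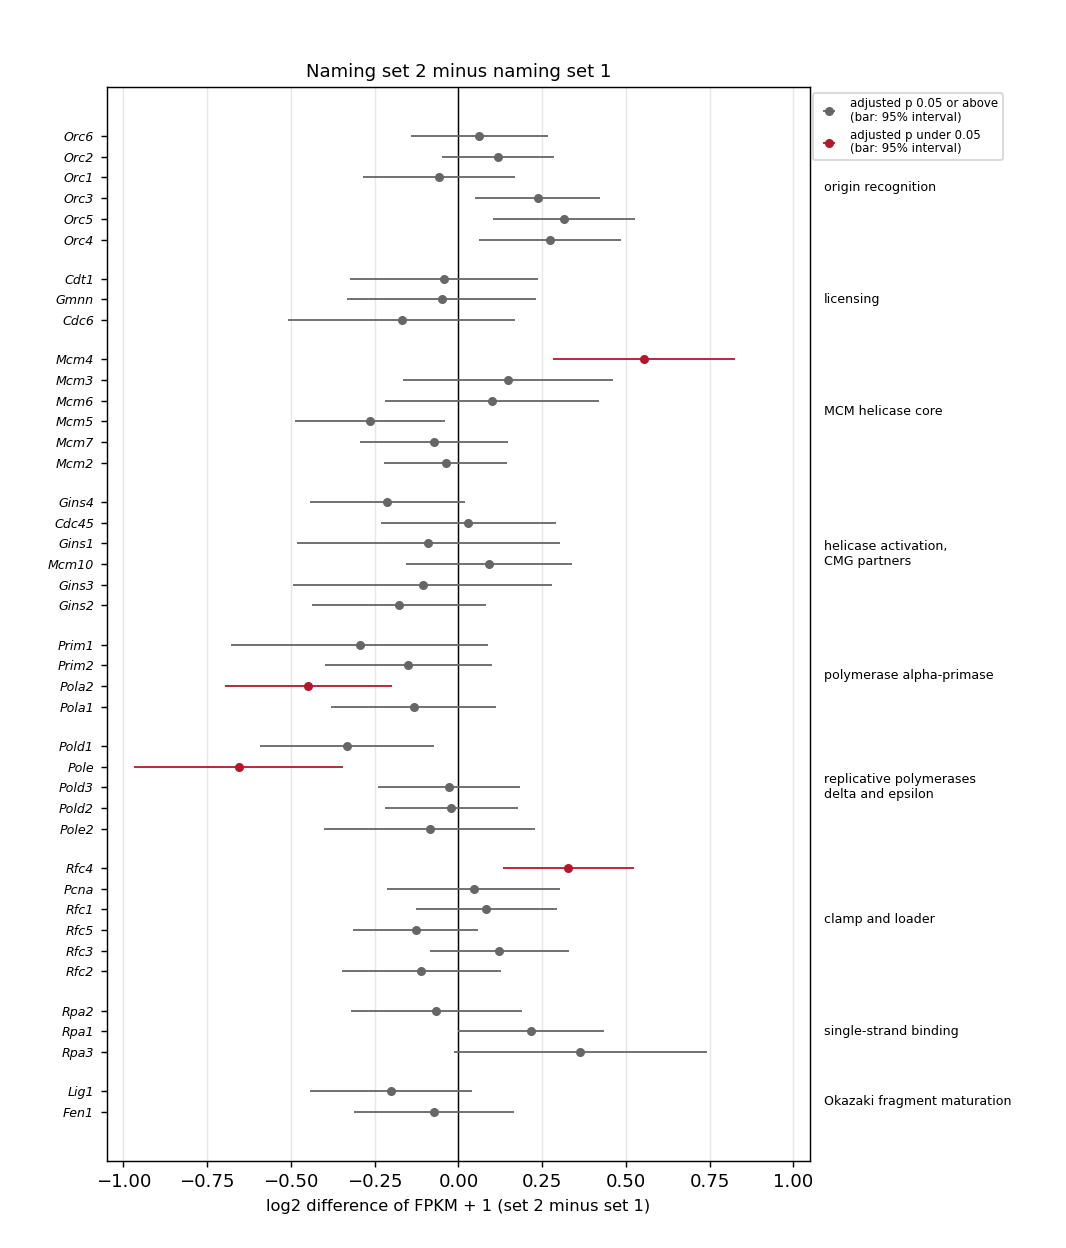
The x axis is the log2 difference of FPKM + 1, naming set 2 minus set 1, from limma with the group as covariate, for each of 41 members (y axis, by role), with 95% intervals as bars (4 lines per set). Mcm4 and Rfc4 (red) lie to the right of 0 and Pole and Pola2 (red) to the left under the deposited scaling.

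Mcm4 (ENSMUSG00000022673, chr16:15623897-15637400, minus strand) was 107.6 ± 19.1 FPKM in set 1 and 156.7 ± 10.7 FPKM in set 2 (SD, n = 4), and the sets did not overlap. Its log2 difference was 0.55 (SE 0.12, limma adjusted p = 0.0227), and it was 0.36 (adjusted p = 0.0685) after quantile normalization. Its share of the MCM2-7 sum was 18.4% ± 2.63 in set 1 and 25.1% ± 1.49 in set 2 (SD, n = 4), while the log2 differences of the other 5 MCM genes ran from -0.26 for Mcm5 to 0.15 for Mcm3 without passing the threshold. Rfc4 (ENSMUSG00000022881, chr16:23113943-23127737, minus strand) was 96.6 ± 11.2 FPKM in set 1 and 121.6 ± 14.5 FPKM in set 2, with a log2 difference of 0.33 (SE 0.086, adjusted p = 0.0367). The call was lost in 11 of 17 alternatives, and the log2 difference was 0.14 (limma adjusted p = 0.240) after quantile normalization. The sets met in ICSI line 17 of set 1, which lay just above control line 45 of set 2.

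Pole, the catalytic subunit of polymerase epsilon (ENSMUSG00000007080, chr5:110286306-110337474, plus strand), gave 28.9, 40.99, 17.2 and 24.5 FPKM in control lines and 34.4, 34.1, 22.4 and 22.4 FPKM in ICSI lines. All 4 lines of set 2 were below all 4 of set 1, with a log2 difference of -0.66 (SE 0.14, limma adjusted p = 0.0211). Pola2, the regulatory B subunit of polymerase alpha (ENSMUSG00000024833, chr19:5940542-5964202, minus strand), gave 9.34, 10.6, 5.95 and 7.99 FPKM in control lines and 9.54, 10.1, 6.56 and 7.57 FPKM in ICSI lines. Its sets did not overlap either, with a log2 difference of -0.45 (SE 0.11, limma adjusted p = 0.0311). Orc3, Orc4, Orc5 and Pold1, which were not called, also had sets that did not overlap. The share of all genes tested with such sets was not counted, so separation alone does not set a member apart. Of all genes tested, 53.6% were above 0. By role, 5 of 6 origin recognition genes were above 0, with a median log2 difference of 0.18. So were 4 of 6 clamp and loader, 3 of 6 MCM, 2 of 3 RPA and 2 of 6 helicase partner genes. The counts were 0 of 4 for polymerase alpha-primase and 0 of 5 for polymerases delta and epsilon, with medians of -0.22 and -0.086. They were 0 of 3 for licensing and 0 of 2 for Okazaki fragment maturation. These signs belong to the deposited scaling and were not counted under the others. Orc5 (log2 difference 0.31, adjusted p = 0.0519) came closest to the threshold without passing it.

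The number of calls rested on single lines. No member passed without control line 37, ICSI line 11 or ICSI line 17, while 1 passed without control line 44, 2 without control line 29, 3 without control line 45 and 4 without ICSI line 20 or 21. The share of all genes tested that was called moved as well, from 16.0% with all lines to 2.39% without control line 37, 1.75% without ICSI line 11, 3.58% without ICSI line 17, 5.62% without control line 44, 8.70% without control line 29, 8.84% without control line 45, 10.1% without ICSI line 20 and 22.4% without ICSI line 21. The germ cell marker sum did not overlap between the sets, at 430 to 505 FPKM in set 1 and 625 to 694 FPKM in set 2. The same held for the sum of 6 markers of undifferentiated spermatogonia (145 to 185 FPKM against 224 to 293 FPKM), with Zbtb16 level at set means of 62.0 and 61.7 FPKM. It also held for the sum of 6 markers of differentiating spermatogonia and meiosis (167 to 205 FPKM against 214 to 262 FPKM). Sycp1 (set means 52.0 and 76.4 FPKM) and Sycp3 (80.6 and 125.8 FPKM) carried that sum. Kit (7.73 and 4.08 FPKM), Stra8 (27.8 and 14.2 FPKM), Dmc1 (15.6 and 12.5 FPKM) and Spo11 (2.76 and 1.06 FPKM) went the other way. None of the genes in these lists was at 0 in all lines. Depth and the named tool versions also followed the sets, and the part of all of these in the differences was not tested.

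**Figure D5:**
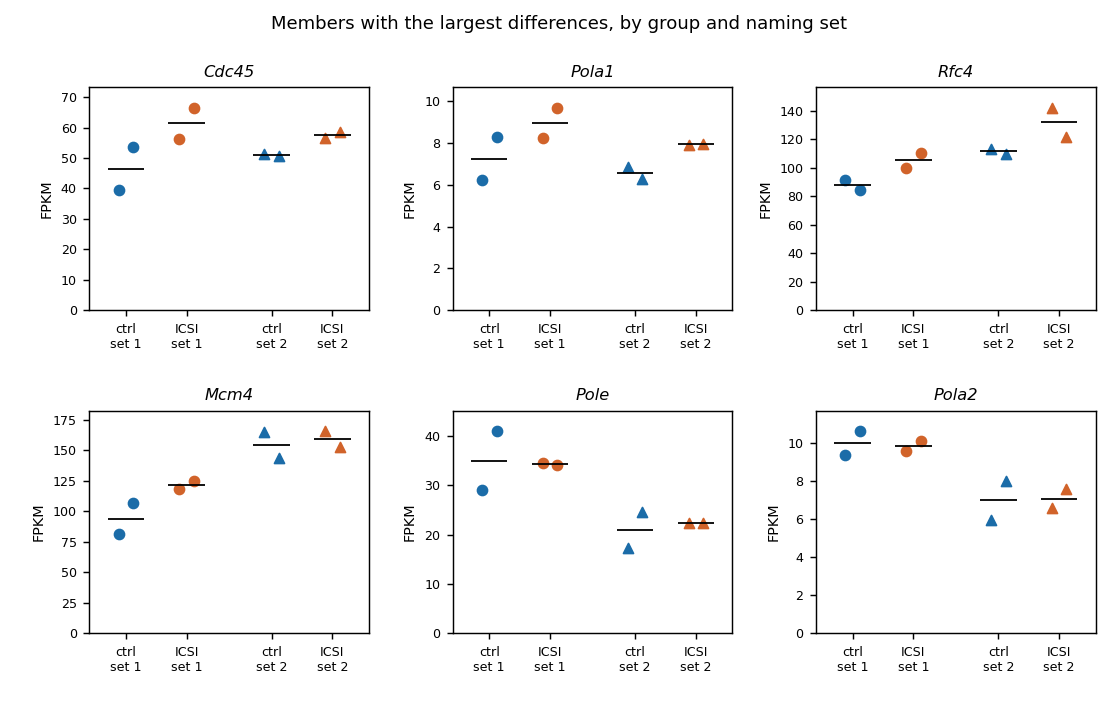
FPKM (y axes, from 0) of members chosen by p. Cdc45, Pola1 and Rfc4 had the smallest p among those higher in ICSI lines, and Mcm4, Rfc4, Pole and Pola2 were called between the naming sets. Each line is a point, with a bar at the mean of 2 lines, by group (blue control, orange ICSI) and naming set (circles set 1, triangles set 2). The ICSI lines lie above the control lines for Cdc45, Mcm4 is higher in set 2 than in set 1, and Pole and Pola2 are lower in set 2.

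Promoters of the 3 members with these differences that were matched and held no E2F-type motif are printed so that they can be set beside the windows above. They are the 250 bases before the RefSeq start (GRCm38.p6), 5′ to 3′ on the gene's strand, with the CCAAT box and the GC box in capitals on either strand. Cdc45 held 1 CCAAT box and 1 GC box, and Rfc4 and Pola2 held 1 GC box each.
Cdc45, chr16:18811973-18812222, minus strand: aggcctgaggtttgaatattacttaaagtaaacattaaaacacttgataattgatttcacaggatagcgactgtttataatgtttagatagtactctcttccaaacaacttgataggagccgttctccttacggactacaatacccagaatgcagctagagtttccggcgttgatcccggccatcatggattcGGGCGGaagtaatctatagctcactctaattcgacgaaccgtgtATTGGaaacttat
Rfc4, chr16:23127731-23127980, minus strand: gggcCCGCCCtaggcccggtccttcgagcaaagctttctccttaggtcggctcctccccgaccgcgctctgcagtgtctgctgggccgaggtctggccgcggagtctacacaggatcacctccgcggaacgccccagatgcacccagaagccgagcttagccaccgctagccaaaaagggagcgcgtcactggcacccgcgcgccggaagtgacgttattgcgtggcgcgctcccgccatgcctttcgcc
Pola2, chr19:5964207-5964456, minus strand: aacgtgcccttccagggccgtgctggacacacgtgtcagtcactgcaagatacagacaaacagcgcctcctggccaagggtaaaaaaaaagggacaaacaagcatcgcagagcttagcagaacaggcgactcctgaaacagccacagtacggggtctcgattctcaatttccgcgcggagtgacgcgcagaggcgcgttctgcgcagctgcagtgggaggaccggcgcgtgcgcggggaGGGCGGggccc

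Whether the ICSI difference itself changed between the naming sets was tested as an interaction. No member and 0% of the genes tested passed the adjusted threshold in limma, and at an unadjusted p under 0.05 there was 1 member, Orc1, against 1.23% of the genes tested. For Orc1 (ENSMUSG00000028587, chr4:108579423-108614833, plus strand) the ICSI lines were lower in set 1 (log2 difference -0.30) and higher in set 2 (0.096), and the interaction was 0.39 (95% interval 0.018 to 0.77). Rpa3 (0.55, 95% interval -0.14 to 1.23) and Gmnn (0.40, 95% interval -0.12 to 0.92) followed, with intervals that held 0. The members' median interaction was 0.12 on the log2 scale against 0.0046 over all genes tested. Above 0 were 30 of 41 members (73.2%), against 51.0% of the genes tested, and this share was not tested.

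Some lines were the lowest or the highest for many members. Control line 29 was the lowest of 8 for 13 of 41 members (31.7%, against 19.9% of the genes tested), and control line 44 was the lowest for another 13 (31.7%, against 14.5%). Control line 37 was the highest for 17 members (41.5%, against 18.7%) and ICSI line 20 for 15 (36.6%, against 20.6%). The median deviation of the members from their mean over 8 lines on the log2 scale was lowest in control lines 29 (-0.10) and 44 (-0.13) and highest in control line 37 (0.18) and ICSI line 20 (0.11). Control lines 29 and 44 had the highest fibroblast marker sums, as given above, and control line 37 had a low one (303 FPKM), but ICSI line 20 combined high members with the third highest sum. The part of fibroblast RNA in these deviations was not tested.

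Other genes of the same pathway were also listed, with earlier results of these data known. Of 37 tested genes among 38 further replication factors (kinases, fork protection, histone chaperones and others), 0 were called between ICSI and control lines, with 0 at an unadjusted p under 0.05, and 6 between the naming sets. Asf1a, Mcm8 and Tipin were higher in set 2, and Chtf18, Lrwd1 and Recql4 lower, at log2 differences from -0.95 (Recql4) to 0.40 (Asf1a). The 8 nucleotide supply genes gave 0 calls in either comparison. Of 18 tested E2F and RB regulators, 0 were called between ICSI and control lines and 1 between the sets (Lin54, log2 difference 0.37). Of 23 mitosis genes, 0 were called between ICSI and control lines, and Mki67 (-0.87), Cenpf (-0.83) and Cdc20 (-0.46) were lower in set 2, with a median of -0.16 over the list. In none of these lists did the share called between the sets pass 16.2%, near the 16.0% of all genes tested.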

How the data were processed

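Libraries of 8 lines were examined. The authors trimmed single reads with cutadapt, mapped them to mm10 with STAR, counted them with HTSeq and deposited FPKM values. For naming set 1 the processing notes name cutadapt 3.4, STAR 2.7.9a, HTSeq 0.13.5 and DESeq2 1.30.1. For set 2 they name cutadapt 1.16, STAR 2.6.0c, HTSeq 0.11.2 and DESeq2 1.22.2. The study's methods name only the versions given for set 1, and this difference between the sources is not explained. The authors' fold changes and adjusted p-values from DESeq2 were not used. Median-of-ratios factors of the deposited values were 1.01 in every library, so these were already scaled. With exon lengths from GENCODE M21, whole reads (within 0.05) were recovered for 98.4% of genes above 0 and all 41 members. A single read per kilobase equaled 0.0227 to 0.0401 FPKM, counting error only.

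All genes averaging 1 FPKM or more were tested by limma 3.58.1 (R 4.3.3; eBayes with a trend) on log2(FPKM + 1), which understates changes of low genes. Tests were two-sided and Benjamini-Hochberg adjustment covered 12000 genes. The study's count model was not used because the values are FPKM. Code was tested on simulated data. Alternatives changed the pseudocount, filter, scaling, covariate and test (limma-voom on recovered reads) or left out each line. Named with values were the highest and lowest member of each role, the 3 higher and 3 lower in ICSI lines with the smallest p, those called between naming sets, and the 3 with the smallest interaction p. Members and lists were chosen with earlier results of these data known.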

Additional observations from a re-analysis of the deposited data

Results flagged for a closer look

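In groups of 4 lines, a line was singled out when its gap to the nearest other line, as a share of the whole range of the group, passed Dixon's 95% critical value. This held in 4 of 82 groups (41 members in each of the groups), and chance alone gives about 1 in 20. Mcm3 was at 134.9 FPKM in ICSI line 20 and 99.1 to 104.1 FPKM in the other ICSI lines (gap share 0.861). Mcm10 was at 17.2 FPKM in ICSI line 20 and 14.0 to 14.6 FPKM in the others (0.834). Mcm5 was at 79.2 FPKM in ICSI line 21 and 98.2 to 99.6 FPKM in the others (0.928). Rfc1, the large subunit of the clamp loader, was at 43.3 FPKM in control line 29 and 52.8 to 53.2 FPKM in the other control lines (0.960).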

How the results depend on the processing

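No member was called between ICSI and control lines, or in the interaction, under any alternative run, and leaving out a line was not among the alternatives of the interaction. Adding the naming set as a covariate left 0 calls between ICSI and control lines, with 3 members at an unadjusted p under 0.05. Between the naming sets, 4 members were called in the main analysis and 4 or 5 under the other pseudocount, filter of 5 FPKM, scalings, covariate, trend and limma-voom settings. Without a filter 2 were called, out of 23964 genes fitted. Median-of-ratios scaling used the same factor in every library, so it nearly repeated the main analysis and is no separate check. Leaving out each line in turn gave 0 to 4 calls, while 1.75% to 22.4% of the genes tested were called. The calls of Mcm4, Rfc4, Pole and Pola2 were lost in 26 of 68 cases (17 alternatives each), 11 of them for Rfc4, 7 for Pola2, 5 for Mcm4 and 3 for Pole, and the sign stayed in each. With the principal transcript's length, which was added after seeing the data, the level of 35 of 41 members moved by more than its spread over lines. No paired analysis was possible because line numbers are not shared between the groups. With 2 lines per group in a naming set, within-set differences are values with no test.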
